A study of Mus musculus with 12 samples.

Results

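Cells carrying both an Asxl1 guide and the CSF3R T618I vector were compared with cells carrying neither, using ATAC-seq peak lists of the mouse HoxB8 line. ATAC-seq marks open chromatin by the insertion of a transposase, and coordinates are on build mm10. The comparison used 6 of the 12 libraries of the study, 3 labelled sgB2/T618I and 3 labelled sgNT/Empty. These libraries were chosen by their labels alone. HoxB8 cells are immortalised bone marrow progenitors grown with stem cell factor and estrogen, and all 12 libraries were taken 48 h after estrogen had been withdrawn. Control cells (sgNT/Empty) carried a non-targeting guide and the vector pMICH-Empty. Cells with both changes (sgB2/T618I, called double-mutant) carried the guide sgB2, made to truncate Asxl1, and the vector pMICH-CSF3R-T618I. The other groups, with 3 libraries each, carried sgB2 with the empty vector (sgB2/Empty) or the non-targeting guide with T618I (sgNT/T618I). All cells therefore shared the immortalised line, a guide, a pMICH vector and the withdrawal of estrogen. The sources used here give neither the promoter that drives the receptor, nor the number of clones, nor whether libraries with 1 label stem from different cultures, so p-values measure only the spread between these libraries.

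CSF3R is the receptor for granulocyte colony-stimulating factor. It signals through JAK kinases and STAT factors and drives myeloid progenitors to become neutrophils, and T618I is an activating mutation known from chronic neutrophilic leukemia. ASXL1 is a partner of the histone H2A deubiquitinase BAP1, and truncating ASXL1 mutations are frequent in myeloid neoplasms. During neutrophil maturation the primary granule proteases are made first, at the promyelocyte stage, whereas secondary and tertiary granule proteins, S100 proteins, stefins and receptors for inflammatory signals follow later.

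Control libraries had 18484, 26579 and 29699 peaks, and libraries with both changes 24995, 32975 and 23695. The first control library was thus the shortest of the 6, with 9.23 Mb covered against 12.6 to 17.9 Mb in the others. Numbers of peaks, covered length, median peak width and the share of peaks within 1 kb of a gene end did not pass a two-sided exact permutation test (p between 0.6 and 0.8, 3 against 3 libraries). The smallest p this design allows is 0.1. That value was reached by the shares of covered length on chromosomes 1 and X. Among defining markers, a peak lay inside Mpo in 11 of 12 libraries, inside Cebpe and Csf3r in 12 of 12, but inside Elane in 1. No library had a peak inside Cd3e, Alas2, Cma1 or Ms4a2, markers of T, erythroid and mast cells, and 6 had one inside the B cell gene Pax5. A peak lay inside Klf1, an erythroid factor, in 12 of 12 libraries, and inside the macrophage genes Csf1r and Adgre1 in 11 and 10. The value of a gene is the length covered by peaks from 50 kb before to 50 kb after it, scaled to equal covered length outside chromosomes 1 and X and given in scaled kb. In such bulk libraries a large change in few cells and a smaller change in all cells cannot be told apart.

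With both changes, peak coverage rose around 388 of 15285 genes tested (2.54%) and fell around 209 (1.37%), at an adjusted p below 0.05 in limma with Benjamini-Hochberg adjustment. Because neighbouring genes share peaks, these were 235 and 143 separate loci. Genes of mature neutrophils and receptors for interleukin-1 and interleukin-4 were among those that rose, and the primary granule genes Mpo, Prtn3 and Elane and the progenitor gene Kit were among those that fell. The groups did not overlap at 384 of the 388 and 206 of the 209, against 19.7% of all genes tested. The median log2 change of all genes was -0.02. Outside chromosomes 1 and X, 262 genes rose and 191 fell. The counts depended on the scaling and on single libraries. Without scaling 18 rose and 6 fell. Of the 52 called genes named in the text, 15 were called without scaling, 14 of the 31 that could be fitted with stricter peaks (a −log10 q of at least 5), and 4 of 29 in equal-length lists, where each library keeps its strongest peaks up to the covered length of the shortest list. The 4 were F2rl2, Amot, Stfa2l1 and Il1rl1. With 1 library left out between 177 (without sgB2/T618I 2) and 321 (without sgNT/Empty 3) rose, and between 71 (without sgB2/T618I 1) and 221 fell.

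Of 25 mature neutrophil genes, 10 rose (40%, against 2.54% of all genes tested) and none fell, with a median log2 change of 0.46, and 23 of the 25 had a change above 0. The mean coverage of the list was 2.51, 2.88 and 3.03 kb in sgNT/Empty against 3.89, 3.89 and 3.95 kb in sgB2/T618I, so the groups did not overlap. In sgNT/T618I it was 4.33, 4.43 and 4.29 kb, above every double-mutant library. In sgB2/Empty it was 2.37, 2.74 and 2.89 kb, overlapping the controls. The 25 genes lie in 19 separate loci, and 11 of the 25 had a region gained in their window, against 11.6% of all genes tested. The 10 that rose are not separate loci either, as S100a8 and S100a9 share their peaks. The list was chosen with earlier results of these data known, so its share and that of all genes are a description. With 1 library left out 10 of the list rose without sgNT/Empty 3, 6 without sgNT/Empty 1 or 2 or sgB2/T618I 2, and 5 without sgB2/T618I 1 or 3. With a 10 kb flank 2 of 23 tested genes were called, with equal-length peak lists 2 of 24, and without scaling none of 25, while the median stayed between 0.22 and 0.55 in these settings.

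S100a8 and S100a9 encode the subunits of calprotectin, the abundant antimicrobial protein of neutrophil cytoplasm. At S100a9 (chromosome 3, 90692630 to 90695721) the covered length was 3.25, 2.54 and 3.01 kb in sgNT/Empty against 5.50, 5.49 and 4.90 kb in sgB2/T618I. All 3 double-mutant libraries lay above all 3 controls (log2 change 0.76 ± 0.12, SE; limma adjusted p = 0.00312). S100a8 shares that window and had the same values in these 6 libraries. The rise was not seen in the stronger peaks: the log2 change of S100a9 was 0.13 with stricter peaks (adjusted p = 0.925) and 0.14 with equal-length lists (adjusted p = 0.709), and without scaling the call was lost too (adjusted p = 0.137). In the other groups S100a9 had 2.27, 2.44 and 2.35 kb with sgB2/Empty and 6.51, 7.38 and 5.90 kb with sgNT/T618I, so sgB2/T618I lay between them. Coverage differed from sgB2/Empty (log2 difference 1.02, adjusted p = 0.00032) and was not called against sgNT/T618I (-0.29, adjusted p = 0.4). The regions chr3:90671459-90673377, chr3:90682258-90682888 and chr3:90691566-90692963, the last across an end of S100a9, each had a peak in all 6 libraries with T618I and in none of the 6 with the empty vector.

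The stefins are intracellular inhibitors of cysteine proteases that are encoded in a cluster on chromosome 16. Stfa2l1 had 0.59, 1.16 and 1.32 kb in sgNT/Empty against 2.67, 2.67 and 2.37 kb in sgB2/T618I (log2 change 1.04 ± 0.18, limma adjusted p = 0.00647), a call that was lost with a 10 kb flank and without scaling (adjusted p = 0.061 with the flank). Its neighbour Stfa2 rose by 1.03 ± 0.27 (adjusted p = 0.044), and that call was lost without any 1 of 5 libraries (sgNT/Empty 1 or 2, or any of the 3 sgB2/T618I; adjusted p up to 0.14). Retnlg, a resistin-like protein of neutrophils, had 0, 0.21 and 0.31 kb in controls and 0.68, 0.58 and 1.39 kb with both changes (1.02 ± 0.23, adjusted p = 0.0226). It lost its call without sgNT/Empty 1 or sgB2/T618I 3 (adjusted p up to 0.098). The lectin receptor genes Clec4d and Clec4e share their peaks and rose by 0.62 ± 0.15 (adjusted p = 0.0328). For Clec4d 5 of the 6 fits with 1 library left out lost the call (adjusted p up to 0.11), the exception being the fit without sgNT/Empty 3. In sgNT/T618I, Stfa2l1 had 3.74, 3.49 and 4.17 kb and Stfa2 5.12, 5.75 and 5.90 kb, above every double-mutant library. Retnlg (1.33, 1.58 and 1.34 kb) and Clec4d (3.34, 2.94 and 2.95 kb) overlapped the double-mutant range there. None of these genes was called between sgB2/T618I and sgNT/T618I (limma adjusted p at least 0.342). Stfa2, Retnlg and Clec4d were named after their values were seen.

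Ccl6 encodes a chemokine of myeloid cells. Its window held 2.99, 4.51 and 3.36 kb in sgNT/Empty against 6.05, 6.25 and 7.13 kb in sgB2/T618I. The groups did not overlap (log2 change 0.77 ± 0.15, limma adjusted p = 0.0117), and sgNT/T618I (5.28, 5.21 and 6.24 kb) overlapped the double-mutant range whereas sgB2/Empty (2.77, 4.06 and 3.95 kb) overlapped the controls. The log2 change of Ccl6 was 0.97 both with stricter peaks and with equal-length lists, but it was called neither there (adjusted p = 0.06 and 0.0894) nor without scaling (adjusted p = 0.289). The region chr11:83592821-83593776, across an end of Ccl6, had a peak in all 6 libraries with T618I and in none of the 6 with the empty vector.

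**Figure D1:**
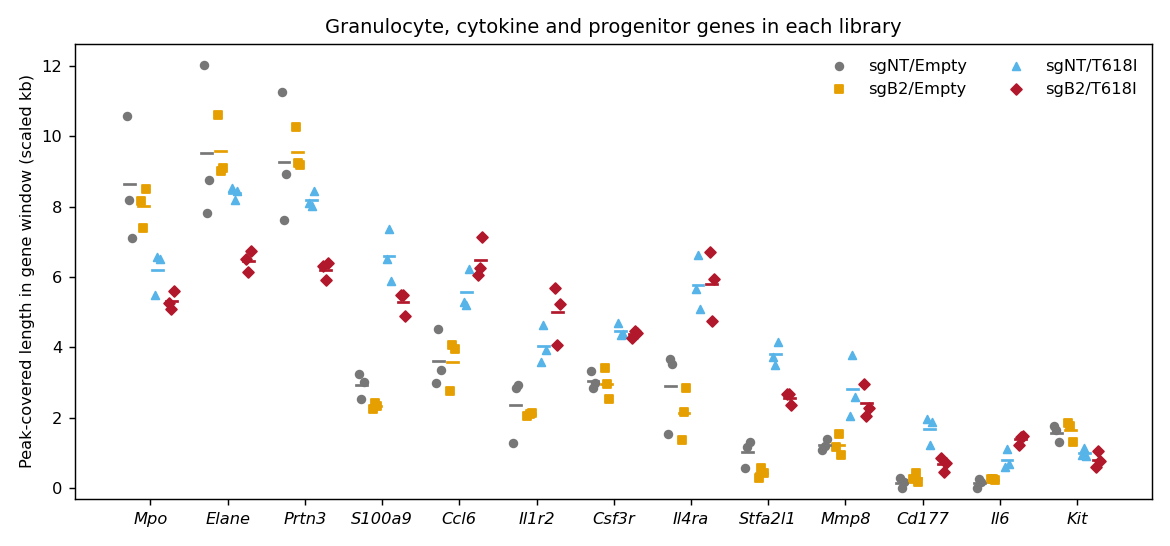
Peak-covered length in the gene window (gene ± 50 kb, scaled kb) of 13 granulocyte, cytokine and progenitor genes, with 1 point per library and a line at each group mean (n = 3). At S100a9, Ccl6, Il4ra and Stfa2l1 the red sgB2/T618I points lie above all grey control points, as do the blue sgNT/T618I points. At Mpo, Elane and Prtn3 the red points lie below all grey points.

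The granule genes did not move as one group. Of 12 primary granule genes, 3 fell (25%, against 1.37% of all genes tested) and none rose, with a median log2 change of -0.17. Mpo, the myeloperoxidase that makes hypochlorous acid, had 10.58, 8.20 and 7.12 kb in sgNT/Empty against 5.27, 5.10 and 5.6 kb in sgB2/T618I. Every double-mutant library lay below every control (log2 change -0.63 ± 0.13, limma adjusted p = 0.0128). Around Mpo sgNT/T618I had 5.49, 6.56 and 6.52 kb and sgB2/Empty 8.16, 7.38 and 8.49 kb. Prtn3 and Elane, neighbouring genes of neutrophil serine proteases, fell too: around Prtn3 the libraries had 11.26, 7.63 and 8.92 kb against 6.31, 5.93 and 6.4 kb (-0.53 ± 0.12, adjusted p = 0.0207). Elane fell by 0.50 on the log2 scale (SE 0.13, adjusted p = 0.0361). Both share peaks, and their calls rested on single libraries: Prtn3 was not called without sgB2/T618I 1 or 2 (adjusted p up to 0.062), and Elane was called in 1 of 6 such fits, that without sgNT/Empty 2 (adjusted p up to 0.10 in the others). With stricter peaks, with equal-length lists and without scaling none of Mpo, Prtn3 and Elane was called. Bpi, which binds bacterial lipopolysaccharide, did not pass (-0.53 ± 0.19, adjusted p = 0.162).

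Of 18 tested secondary and tertiary granule genes, 2 rose (11.1%, against 2.54% of all genes tested) and none fell, and the median log2 change was 0.02. Mmp8, the neutrophil collagenase, had 1.08, 1.20 and 1.40 kb in sgNT/Empty against 2.96, 2.04 and 2.28 kb in sgB2/T618I (log2 change 0.75 ± 0.19, limma adjusted p = 0.039). Cd177, a neutrophil surface protein, had 0.30, 0 and 0.17 kb against 0.85, 0.46 and 0.72 kb (0.85 ± 0.22, adjusted p = 0.0409). Neither group pair overlapped, but the call of Mmp8 was lost when any 1 library was left out (adjusted p up to 0.15) and that of Cd177 without sgNT/Empty 2 or 3 or sgB2/T618I 1 or 3 (adjusted p up to 0.154). With stricter peaks the log2 change of Mmp8 was 0.04 and with equal-length lists 0.18. In sgNT/T618I Mmp8 had 2.04, 3.80 and 2.61 kb, overlapping the double-mutant range. Cd177 had 1.96, 1.23 and 1.89 kb there, above every double-mutant library. That difference was not called (log2 -0.90 for sgB2/T618I against sgNT/T618I, limma adjusted p = 0.108). Fcnb (-0.46 ± 0.16, adjusted p = 0.131) and Padi4 (0.27 ± 0.12, adjusted p = 0.245) did not pass. None of the 5 tested subunits of the phagocyte oxidase passed, among them Ncf4 (0.35 ± 0.11, adjusted p = 0.106). For 5 genes this is near the 2.54% and 1.37% of all genes tested that rose and fell.

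Of 18 tested cytokine receptor genes, 4 rose (22.2%, against 2.54% of all genes tested) and none fell, with a median log2 change of 0.24. Csf3r itself (chromosome 4, 126023441 to 126044975) had 3.35, 2.84 and 2.98 kb in sgNT/Empty against 4.27, 4.46 and 4.42 kb in sgB2/T618I (log2 change 0.46 ± 0.12, limma adjusted p = 0.0372). The groups did not overlap, and sgB2/T618I overlapped sgNT/T618I (4.70, 4.36 and 4.39 kb). The gained regions chr4:125990289-125991181 and chr4:126003993-126005124 lie 32260 and 18317 bp from the gene and had a peak in all 6 T618I libraries and in none with the empty vector. The call was not kept nearer the gene or in stronger peaks: with a 10 kb flank the log2 change was -0.11, with stricter peaks -0.08 and with equal-length lists -0.08. It was also lost without sgNT/Empty 2 or 3 or any sgB2/T618I library (adjusted p up to 0.12). Reads from the vector insert cannot be separated from those of the endogenous gene.

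Il4ra, the interleukin-4 receptor subunit, had 1.55, 3.67 and 3.53 kb in sgNT/Empty against 6.72, 4.75 and 5.95 kb in sgB2/T618I (log2 change 0.94 ± 0.24, limma adjusted p = 0.0405). The first control library was the lowest of the 3, and the call was lost without it or without any 1 sgB2/T618I library (adjusted p up to 0.14). Il4ra had 5.66, 6.61 and 5.08 kb in sgNT/T618I and 1.39, 2.17 and 2.86 kb in sgB2/Empty. Il1r2, the decoy receptor for interleukin-1, had 1.28, 2.86 and 2.92 kb against 5.69, 4.08 and 5.22 kb (1.0 ± 0.20, adjusted p = 0.014), a call that was lost without sgB2/T618I 1 (adjusted p = 0.06). Il1r2 had 3.60, 4.63 and 3.93 kb in sgNT/T618I and 2.05, 2.10 and 2.15 kb in sgB2/Empty. Its signalling counterpart Il1r1 had 0.78, 1.79 and 2.00 kb against 3.57, 4.68 and 4.17 kb (1.25 ± 0.28, adjusted p = 0.024). The call of Il1r1 was lost without sgNT/Empty 1 or any 1 sgB2/T618I library (adjusted p up to 0.082). Il1r1 had 3.45, 2.75 and 3.06 kb in sgNT/T618I and 1.01, 3.40 and 2.52 kb in sgB2/Empty. With equal-length lists none of Il4ra, Il1r2 and Il1r1 was called, and the change of Il1r1 was 0.52. Il1r1 and Il1r2 lie on chromosome 1, where the median log2 change of all tested genes was 0.28, and Csf3r and Il1r2 are also members of the mature neutrophil list.

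None of 23 genes of the JAK-STAT pathway and its targets passed, near the 2.54% and 1.37% of all genes tested that rose and fell. Their median log2 change was 0.06. Those with the smallest p were Pim3, a kinase induced by STAT factors (0.49 ± 0.14, limma adjusted p = 0.0616), the phosphatase gene Ptpn11 (-0.28 ± 0.12, adjusted p = 0.245), Stat5b (0.26 ± 0.13, adjusted p = 0.33) and Jak2 (0.32 ± 0.18, adjusted p = 0.38). Of 26 inflammatory genes linked to NF-kB and AP-1, 1 rose, near the 2.54% of all genes. Il6, which encodes the cytokine interleukin-6, had 0, 0.25 and 0.18 kb in sgNT/Empty, 0.26, 0.25 and 0.22 kb for sgB2/Empty, 0.60, 1.11 and 0.70 kb in sgNT/T618I, and 1.23, 1.45 and 1.5 kb with both changes. The double-mutant libraries were the highest of all 12 (log2 change 1.57 ± 0.20, adjusted p = 0.000564), and the rise was called in each of the 15 alternatives in which Il6 could be fitted, also with no minimum coverage (adjusted p = 0.00104). Il6 was not fitted with a 10 kb flank, stricter peaks or equal-length lists, so its rise was not tested nearer the gene or in stronger peaks. Its mean over the 9 other libraries was 0.397 kb, below the minimum of 0.5 kb, so it was tested only through the group in which it is high. The difference from sgNT/T618I was not called (0.55, adjusted p = 0.3), and that from sgB2/Empty was (1.34, adjusted p = 0.0024). No interferon response gene passed (13 tested, median -0.01), which is also near the shares of all genes tested.

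Among 15 tested stem and progenitor genes, 2 fell (13.3%, against 1.37% of all genes tested) and 1 rose, with a median log2 change of -0.19. Kit, the stem cell factor receptor, had 1.76, 1.67 and 1.31 kb in sgNT/Empty against 0.60, 1.07 and 0.78 kb in sgB2/T618I (log2 change -0.67 ± 0.17, limma adjusted p = 0.0393). It had 0.95, 1.13 and 0.93 kb in sgNT/T618I and 1.86, 1.78 and 1.30 kb in sgB2/Empty. Bcl11a, a transcriptional repressor needed for B cells and for silencing fetal globin, had 1.42, 1.0 and 1.43 kb against 0, 0.14 and 0 kb (-1.71 ± 0.21, adjusted p = 0.000545). Here sgB2/Empty was as low (0, 0.29 and 0 kb) and sgNT/T618I lay between (0.85, 0.84 and 0.97 kb). The peak at its gene end, chr11:24076494-24078051, was present in all 6 libraries with the non-targeting guide and in none with sgB2. Gata2, a factor of stem cells and mast cells, had 1.88, 1.74 and 1.45 kb against 2.97, 3.47 and 2.15 kb (0.61 ± 0.16, adjusted p = 0.044). Without 1 library the calls of Kit and Gata2 were lost in 4 and 5 of 6 fits (adjusted p up to 0.149 and 0.164). These were, for Kit, the fits without sgNT/Empty 1 or 2 or sgB2/T618I 1 or 3, and for Gata2 all but the fit without sgB2/T618I 3. Bcl11a reached the minimum of 0.5 kb only through the controls.

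Of 22 tested myeloid transcription factor genes, Maf alone passed, a factor of macrophages that fell (4.55%, against 1.37% of all genes tested). Its window had 1.03, 1.44 and 1.14 kb in sgNT/Empty against 0, 0.26 and 0.24 kb in sgB2/T618I (log2 change -1.37 ± 0.27, limma adjusted p = 0.0124), and without sgB2/T618I 1 the adjusted p was 0.055. In sgNT/T618I it had 0.22, 0 and 0.16 kb and in sgB2/Empty 0.29, 1.13 and 1.15 kb. Maf reached the minimum of 0.5 kb only through the controls, with a mean of 0.383 kb over the 9 other libraries, and it was not called without scaling (adjusted p = 0.16). Rara, Rxra and Klf6 had changes of 0.38 ± 0.13, 0.64 ± 0.22 and 0.56 ± 0.19, with adjusted p of 0.113, 0.125 and 0.131. None of 24 tested genes of the ASXL-BAP1 and Polycomb complexes passed (median -0.03), and neither did any of 18 cell cycle genes (median -0.02). Both are near the 2.54% and 1.37% of all genes tested that rose and fell. Asxl1 (chromosome 2, 153345830 to 153404007) had 2.24, 2.03 and 3.71 kb in sgNT/Empty against 3.35, 4.99 and 4.27 kb in sgB2/T618I (0.60 ± 0.22, adjusted p = 0.174), with overlapping groups. A peak list cannot show the edit of the guide. Hoxb8 had 0.60, 1.66 and 0.74 kb against 0.68, 1.04 and 0.46 kb (-0.25 ± 0.23, adjusted p = 0.65), also overlapping. In the cell cycle list Ccnd2, a D-type cyclin, had the largest fitted change (-0.85 ± 0.23, adjusted p = 0.0523).

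**Figure D2:**
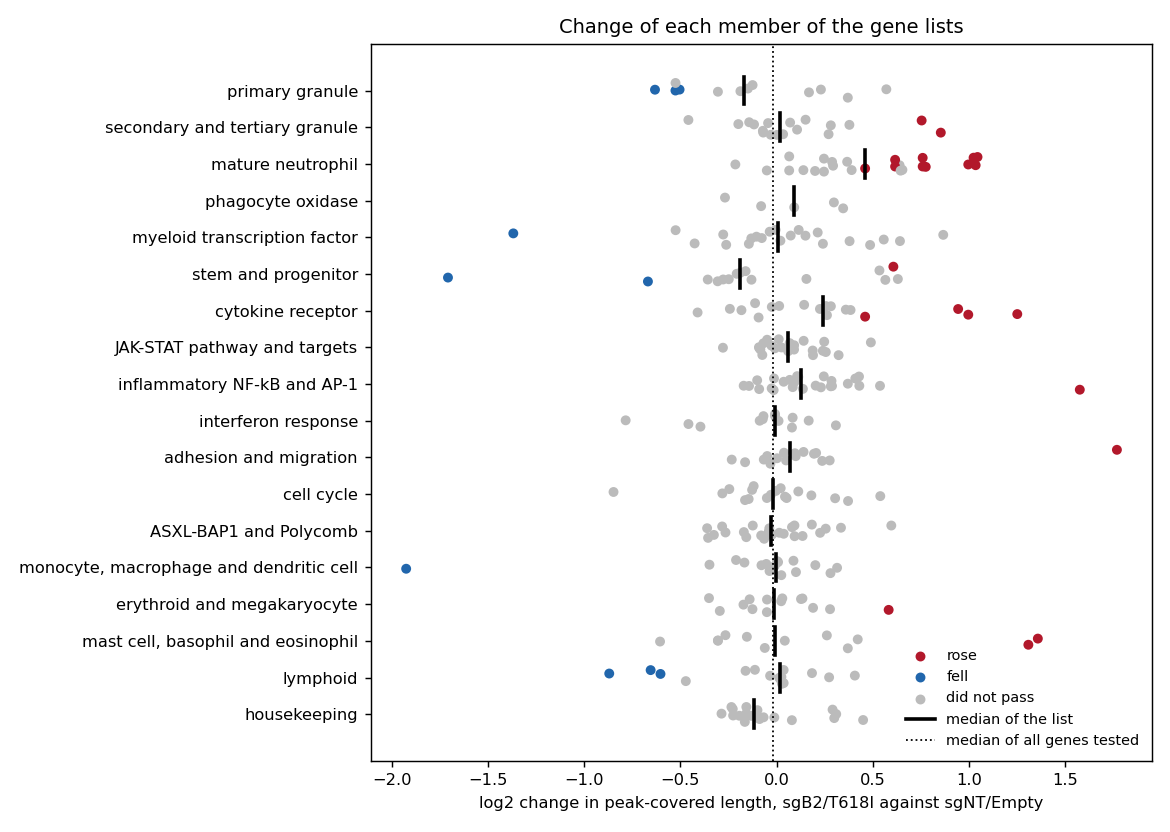
Log2 change in peak-covered length (sgB2/T618I against sgNT/Empty) of every tested member of 18 gene lists, 1 point per gene, with the list median as a bar and the median of all genes tested (-0.02) as a dotted line. The mature neutrophil bar stands at 0.46 with 10 red points, while the bars of 16 of the other 17 lists lie between -0.19 and 0.12 and that of cytokine receptors at 0.24.

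Markers of other cell types gave few calls. In the mast cell, basophil and eosinophil list 2 of 12 tested genes rose (16.7%, against 2.54% of all genes tested; median -0.01). Il1rl1, a cytokine receptor of mast cells, had 1.65, 2.62 and 2.42 kb in sgNT/Empty against 5.34, 6.81 and 6.45 kb in sgB2/T618I (log2 change 1.31 ± 0.14, limma adjusted p = 0.000173). It had 4.76, 4.40 and 4.12 kb in sgNT/T618I and 3.62, 3.39 and 3.78 kb in sgB2/Empty, and lies beside Il1r1 on chromosome 1. The mast cell protease gene Cma1 had 0.46, 1.02 and 0.41 kb against 1.69, 2.64 and 2.73 kb (1.36 ± 0.28, adjusted p = 0.0146), although no library had a peak inside Cma1 itself. The call of Cma1 was lost without sgB2/T618I 2 or 3 (adjusted p up to 0.057). Cma1 had 1.18, 1.88 and 1.89 kb in sgNT/T618I and 0.29, 0.55 and 1.31 kb in sgB2/Empty. The mean coverage of this list ran from 1.58 to 1.9 kb in sgNT/Empty and from 1.99 to 2.39 kb in sgB2/T618I. Whether such cells were present in different shares was not tested.

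Of 16 tested lymphoid genes, 3 fell (18.8%, against 1.37% of all genes tested; median 0.02). Ebf1, a factor that specifies B cells, had 1.36, 1.45 and 1.65 kb in sgNT/Empty against 0.39, 1.0 and 0.46 kb in sgB2/T618I (log2 change -0.87 ± 0.19, limma adjusted p = 0.0172). Vpreb1 and Igll1, which encode the surrogate light chain, share their window and fell by 0.65 and 0.60 (adjusted p = 0.0329 and 0.0403). All 3 calls depended on single libraries: Ebf1 was not called without sgNT/Empty 3, sgB2/T618I 1 or sgB2/T618I 3 (adjusted p up to 0.0758), and Vpreb1 and Igll1 were called only in the fit without sgNT/Empty 1 (up to 0.125 and 0.128 in the others). With equal-length lists the changes of Vpreb1 and Igll1 were both -0.07. Of 14 erythroid and megakaryocyte genes, 1 rose (7.14%, against 2.54% of all genes tested; median -0.01): Gata1 on the X chromosome had 0.62, 0.43 and 0.39 kb against 1.02, 0.81 and 1.07 kb (0.58 ± 0.16, adjusted p = 0.0498). That value sits at the threshold, and 13 of 16 alternatives lost the call, among them those without sgNT/Empty 2 or 3 or any 1 sgB2/T618I library (adjusted p up to 0.156). Of 16 monocyte, macrophage and dendritic cell genes, Spp1 alone passed, as a fall (6.25%, against 1.37% of all genes tested). None of 20 housekeeping genes passed (median -0.12), near the 2.54% and 1.37% of all genes tested that rose and fell. In the adhesion and migration list 1 of 16 genes rose (6.25%, against 2.54% of all genes tested). This gene, Nrp2, a co-receptor for semaphorins and VEGF on chromosome 1, had 0.46, 0 and 0.89 kb against 2.91, 1.80 and 2.86 kb (1.77 ± 0.30, adjusted p = 0.00557). With a 10 kb flank the change of Nrp2 was 0.39 and with equal-length lists 1.01, neither of them called.

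The 10 largest rises at separate loci were led by F2rl2, a protease-activated receptor that assists thrombin signalling (chromosome 13, 95696920 to 95702768). Its window held 0, 0.21 and 0.62 kb in sgNT/Empty against 2.98, 3.41 and 4.41 kb in sgB2/T618I (log2 change 2.46 ± 0.24, limma adjusted p = 0.00011). The groups were far apart. In sgNT/T618I it held 2.05, 2.71 and 2.26 kb and in sgB2/Empty 0.51, 0.25 and 0.21 kb. Map10, which encodes a microtubule-associated protein, had the same order, with 0, 0.29 and 0.22 kb in controls, 1.60, 1.36 and 1.57 kb with sgNT/T618I, 0, 0 and 1.04 kb for sgB2/Empty and 1.69, 2.16 and 1.86 kb in sgB2/T618I (1.87 ± 0.33, adjusted p = 0.00612). At these genes the libraries with T618I were high under both guides.

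At Nfatc2, a calcium-regulated transcription factor gene, all 3 other groups lay above the controls. The values were 0, 0.55 and 0.49 kb in sgNT/Empty, 2.93, 2.26 and 1.91 kb for sgB2/Empty, 1.77, 2.05 and 1.41 kb in sgNT/T618I, and 2.58, 2.33 and 2.78 kb with both changes (log2 change 1.92 ± 0.23, limma adjusted p = 0.000545). Fam155a, a gene for a subunit of the sodium leak channel, had no covered base in any control library and 2.00, 1.40 and 2.18 kb with both changes, 1.38, 1.42 and 1.72 kb in sgB2/Empty and 1.29, 0.66 and 1.41 kb in sgNT/T618I (adjusted p = 5.72e-05). With controls at 0 its fitted log2 change depends on the 500 bp added, and no fold is given. Akap6, an anchoring protein for protein kinase A, had 0, 0.67 and 0.17 kb in controls and 2.85, 3.64 and 2.44 kb with both changes (2.24 ± 0.30, adjusted p = 0.00108). At Akap6 sgNT/T618I stayed at 0.24, 0.26 and 0.32 kb and sgB2/Empty reached 0.51, 1.58 and 1.73 kb, yet the gained region inside the gene, chr12:52782943-52783374, had a peak in all 3 sgNT/T618I libraries and in none of sgB2/Empty.

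Eno4, an enolase of sperm, had no covered base in sgNT/Empty and 1.23, 1.31 and 1.30 kb in sgB2/T618I (adjusted p = 0.000545 by limma), with sgB2/Empty (0.59, 0.63 and 0.57 kb) and sgNT/T618I (0.19, 0.20 and 0.86 kb) between them. Of the remaining genes of this group, Pard3b, Dst and Dpp10 lie on chromosome 1 and Car8 on chromosome 4. Pard3b, a cell polarity gene whose window overlaps that of Nrp2, had 1.47, 0.59 and 1.56 kb in controls against 5.84, 4.97 and 6.65 kb with both changes (log2 change 1.93 ± 0.25, adjusted p = 0.000761), and 0.97 with equal-length lists, not called. Dpp10, a subunit of potassium channels, had no covered base in controls and 0.90, 1.65 and 0.92 kb with both changes (adjusted p = 0.0241), and each of the 5 fits with 1 library left out that could be made lost the call (adjusted p between 0.0516 and 0.0611). Car8, Eno4, Dst and Dpp10 passed the minimum mean coverage of 0.5 kb only through the sgB2/T618I libraries, so among low genes those that did not rise had no chance to be tested. The same held for the control libraries at Bnc2, Kcnk12 and Bcl11a among the 10 largest falls.

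Falls were led by Col4a6, a basement membrane collagen gene on the X chromosome, with 3.24, 2.25 and 3.72 kb in sgNT/Empty against 0.29, 1.32 and 0 kb in sgB2/T618I (log2 change -1.97 ± 0.39, limma adjusted p = 0.013). The call was lost without sgB2/T618I 3 (adjusted p = 0.0515). Ttr, the thyroid hormone carrier transthyretin, had 2.89, 1.95 and 2.23 kb against 0.46, 0.40 and 0 kb (-1.91 ± 0.28, adjusted p = 0.00184), and Calml3, a calmodulin-like gene, had 1.55, 1.49 and 1.75 kb against 0, 0 and 0.26 kb (-1.86 ± 0.26, adjusted p = 0.0014). At both, the means of the single-mutant groups lay between these groups. Bnc2, a zinc finger gene, had 1.11, 0.81 and 1.67 kb in controls and no covered base with both changes (adjusted p = 0.00039), so no fold is given. Ankrd24 (1.31, 1.06 and 1.32 kb against 0, 0.43 and 0 kb; -1.49 ± 0.25, adjusted p = 0.00481) had control-like values in sgB2/Empty (1.02, 1.09 and 1.47 kb). Kcnk12, a potassium channel gene, and Fibcd1, a chitin receptor gene, completed the 10 with changes of -1.72 ± 0.42 and -1.50 ± 0.39 (adjusted p = 0.0328 and 0.0402). Each of these 2 lost its call in 5 of 6 fits with 1 library left out (adjusted p up to 0.134 and 0.158), Kcnk12 in all but that without sgB2/T618I 3 and Fibcd1 in all but that without sgB2/T618I 2.

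**Figure D3:**
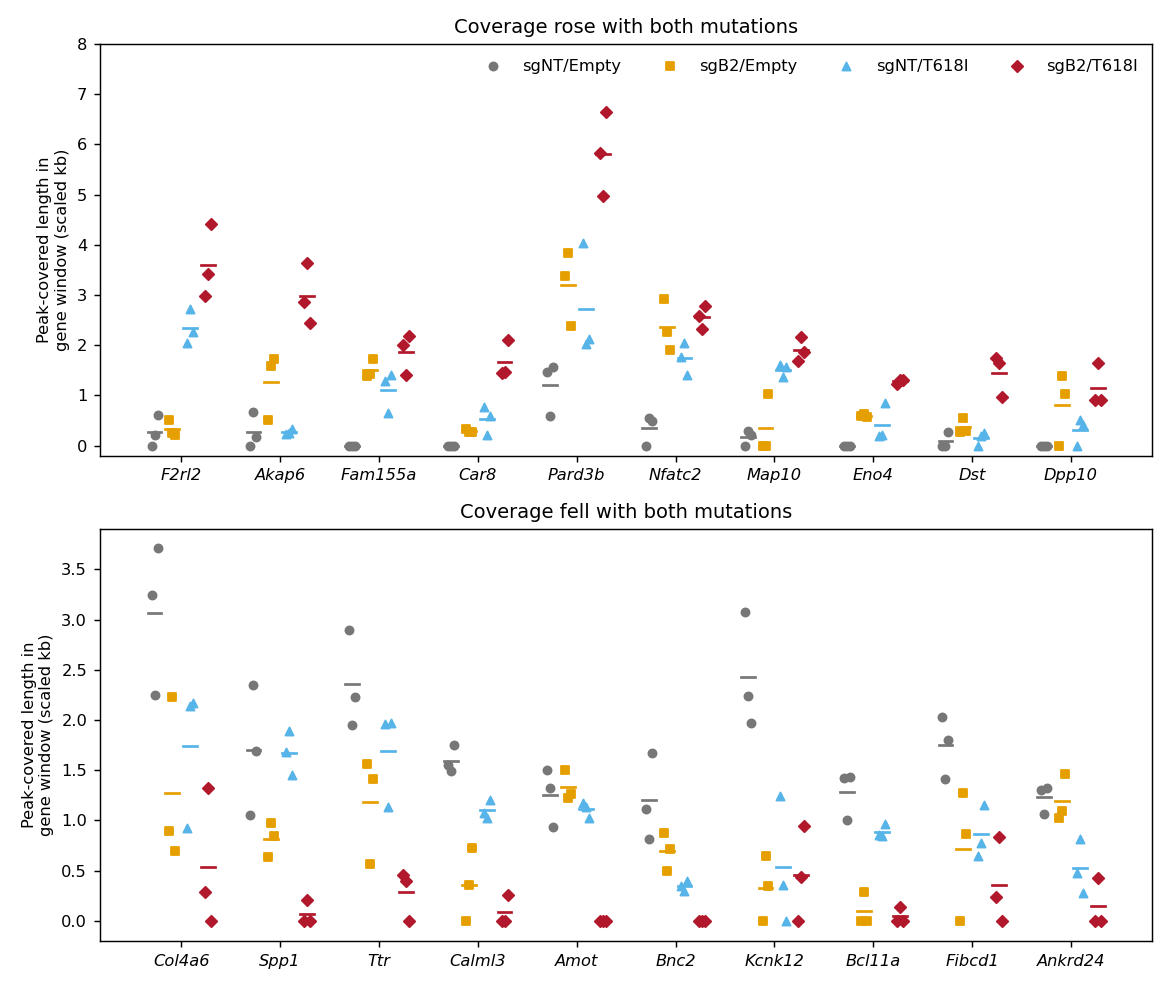
Peak-covered length (gene ± 50 kb, scaled kb) in each of the 12 libraries for the 10 genes with the largest rise (top) and the 10 with the largest fall (bottom) at separate loci, with a line at each group mean (n = 3). The red sgB2/T618I points do not overlap the grey sgNT/Empty points at any of the 20 genes, which the choice of the genes required, and the single-mutant groups lie at the control level at some genes and at the double-mutant level at others.

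The double-mutant libraries were also set against each single-mutant group. These comparisons share the sgB2/T618I libraries, so their calls are not independent of each other. Against sgNT/T618I, 25 genes rose (0.164%) and 25 fell (0.164%), and 12 of those that rose were on chromosome 1. Against sgB2/Empty, 184 rose (1.2%) and 61 fell (0.399%). A total of 7 genes passed against the controls and both single-mutant groups (0.0458% of genes tested), and those outside the 20 above were named after their values were seen. Car8, a carbonic anhydrase-related gene, and Dst, a cytoskeletal linker gene on chromosome 1, were higher than in each other group. Both reached the minimum of 0.5 kb only through the sgB2/T618I libraries, with means of 0.273 and 0.204 kb over the 9 other libraries. Neither was fitted with a 10 kb flank, stricter peaks or equal-length lists. Car8 had no covered base in controls, 0.33, 0.28 and 0.27 kb for sgB2/Empty, 0.77, 0.21 and 0.60 kb in sgNT/T618I, and 1.45, 1.47 and 2.10 kb with both changes. Its smallest difference from another group was a log2 value of 1.11 against sgNT/T618I (limma adjusted p = 0.034). Dst had 0, 0 and 0.27 kb in controls and 1.74, 1.64 and 0.97 kb with both changes (log2 change 1.73 ± 0.24, adjusted p = 0.0014).

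The other 5 were lower than in every other group. Spp1, which encodes osteopontin, had 1.06, 2.35 and 1.69 kb in sgNT/Empty, 0.63, 0.97 and 0.85 kb for sgB2/Empty, 1.68, 1.89 and 1.45 kb in sgNT/T618I, and 0, 0.21 and 0 kb with both changes (log2 change against controls -1.92 ± 0.22, limma adjusted p = 0.000311). A region 26350 bp from Spp1, chr5:104407565-104408761, had a peak in all 9 other libraries and in no double-mutant library. Pkd2, the neighbour of Spp1, shares that region and fell by 1.28 (adjusted p = 0.00134), a call that was lost with a 10 kb flank (-0.59), with equal-length lists (-0.63) and without scaling. Amot, which encodes a scaffold of cell junctions and the Hippo pathway, had 1.5, 1.33 and 0.93 kb in controls, 1.51, 1.22 and 1.26 kb in sgB2/Empty, 1.17, 1.13 and 1.02 kb in sgNT/T618I and no covered base with both changes (adjusted p = 5.72e-05 against controls). The region at its gene end, chrX:145504723-145506223, was likewise present in all 9 other libraries. With stricter peaks Amot was not called.

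Ryr2, a calcium release channel gene, had 2.60, 2.47 and 2.64 kb in controls, 2.95, 3.13 and 3.71 kb in sgB2/Empty, 2.89, 1.77 and 2.72 kb in sgNT/T618I, and 1.15, 0.68 and 1.10 kb with both changes (log2 change -1.07 ± 0.17, limma adjusted p = 0.00344). Thbs1, which encodes thrombospondin, had 1.14, 0.93 and 1.13 kb in controls and 0.45, 0 and 0 kb with both changes (-1.33 ± 0.22, adjusted p = 0.00511). At both, the double-mutant libraries were the lowest of the 12. Ryr2 was not called with stricter peaks (-1.06, adjusted p = 0.118), with equal-length lists (-1.15, adjusted p = 0.071) or without scaling, and Thbs1 was not called without scaling. The difference between the double-mutant change and the sum of the single-mutant changes was tested in the same fit: 1 gene passed in the negative direction (0.00654%), Amot, and none in the positive direction (0%). At an unadjusted p below 0.05 there were 765 of 15285 genes of either sign. That is near the share expected with no difference at any gene, and sgB2/T618I against sgNT/Empty had 2591.

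Presence of peaks was then compared region by region. The peaks of all 12 lists merged to 56682 regions. Of these, 1084 (1.91%) had a peak in all 3 sgB2/T618I libraries and in none of the 3 sgNT/Empty libraries, and are called gained, and 522 (0.921%) had the opposite pattern and are called lost. An exact test of presence in 3 against 3 libraries cannot go below p = 0.1, and no test of single regions was run. Within 1 kb of the end of a protein-coding gene lay 8.67% of the gained and 12.3% of the lost regions, against 20.2% of all regions. All regions include 13356 with a peak in all 12 libraries, which can be neither gained nor lost. Of these 57.8% lay at gene ends, so the lower shares follow at least in part from the definition. The peaks of gained and lost regions were weaker than most: the median of their mean rank within a library by −log10 p was at the 33.1 percentile for gained and the 32.4 percentile for lost regions. In stricter lists there were 442 gained and 370 lost regions, and in equal-length lists 521 and 525, so the excess of gained over lost regions was not present in equal-length lists. With 1 library left out the counts ran from 1126 to 1985 gained regions (1838 without sgB2/T618I 1, 1985 without sgB2/T618I 3, 1701 without sgNT/Empty 3) and from 577 to 2040 lost regions (2040 without sgNT/Empty 1, 993 without sgB2/T618I 2). Leaving a library out loosens the definition, so these counts could not fall and only the size of the increase is informative.

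The single-mutant libraries, which the definition did not use, showed how these regions were shared. A sgNT/T618I library had a peak in 59.9% ± 6.95 of the gained regions (SD, n = 3) and a sgB2/Empty library in 24.3% ± 8.08, while sgNT/T618I and sgB2/Empty libraries held 45.9 to 51.8% and 35.4 to 45.3% of all regions. The groups did not overlap (exact permutation test, two-sided p = 0.1, the smallest possible). The sgB2/Empty lists were also shorter, with 9.46, 12.2 and 13.2 Mb covered against 16.8, 15.8 and 16.2 Mb in sgNT/T618I. The part of list length in this difference was not tested. All 3 sgNT/T618I libraries had a peak in 443 gained regions (40.9%) and all 3 sgB2/Empty libraries in 107 (9.87%). No single-mutant library had a peak in 146 gained regions, and all 6 had one in 40. Lost regions were less one-sided: a sgNT/T618I library had a peak in 54.6% ± 5.31 and a sgB2/Empty library in 47.2% ± 12.2 of them (SD, n = 3; exact p = 0.6). Of the 522 lost regions, 53 were present in all 6 single-mutant libraries and 44 in none.

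**Figure D4:**
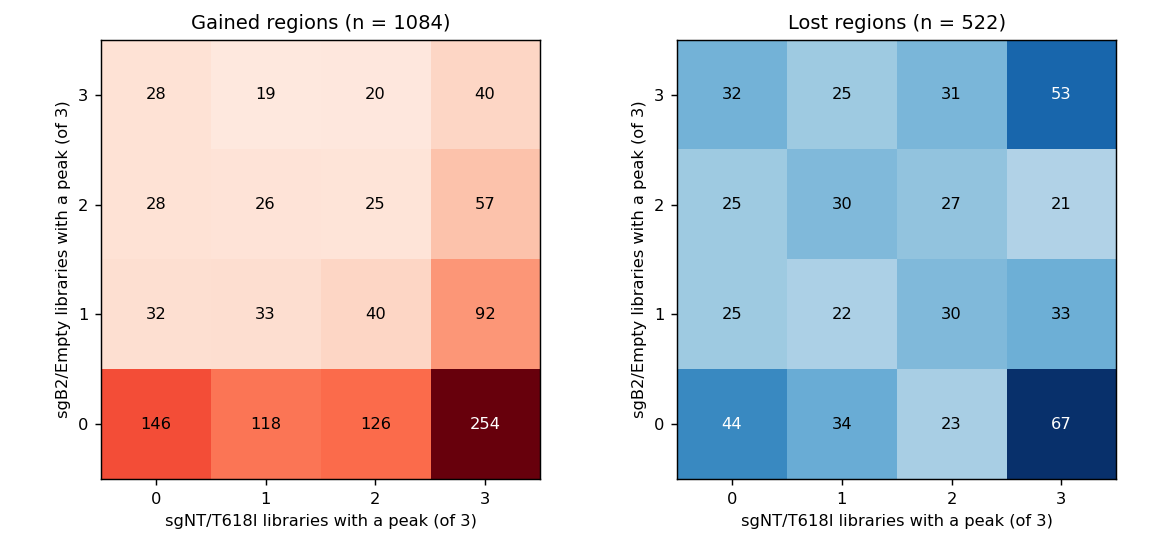
Number of gained (left) and lost (right) regions by how many of the 3 sgNT/T618I libraries (x axis) and of the 3 sgB2/Empty libraries (y axis) also had a peak there, with darker cells for more regions. The fullest cell of the gained regions is the one with all 3 sgNT/T618I and no sgB2/Empty libraries (254), and the lost regions are spread more evenly, with 67 regions in that cell.

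The gained region with the highest ranked peaks, chr7:3411166-3411749 inside Cacng8, had a peak in all 9 libraries other than the controls, at a mean rank of the 96.0 percentile. A region at an end of Pcbp3, chr10:76961713-76962271, had a peak in all 3 sgB2/Empty and no sgNT/T618I library. Further highly ranked gained regions lay inside Ralgds and Wdpcp and, on chromosome 1, nearest to Gm4846 and Brinp3. The highest ranked lost region, chr5:23410115-23410654, lay 22382 bp from Kmt2e and was kept in 3 sgNT/T618I and 2 sgB2/Empty libraries. The region chr17:75461765-75462135 inside Rasgrp3 and the region chr3:108099550-108100440 at an end of Gnat2 were kept in all 6 single-mutant libraries. Lost regions of high rank also lay nearest to Zfp324, Mreg and Asic2. Regions and genes met in part: 250 of the 388 genes that rose had a gained region in their window and 95 of the 209 that fell had a lost one, against 11.6% and 5.48% of all genes tested. Both measures come from the same peaks, so this is a description.

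A gained or lost region touched few annotated promoters. In the RefSeq promoter table of GRCm38.p6, the assembly of mm10, a gained region overlapped 88 of 32619 promoter windows (81 genes) and a lost region 62 (55 genes). The windows run from 250 bases before to 50 after a start. The 6 sequences that follow are shown because a gained or lost region covers them and the gene was called in the same direction. They were chosen after their values were seen. They give the 250 bases before the start, read 5′ to 3′ on the strand of the gene, with matches of the motifs searched in capitals. The first 4 were gained: Mmp8 (chr9:7558179-7558428, plus strand), Ccl6 (chr11:83593088-83593337, minus strand), Stfa2 (chr16:36408364-36408613, minus strand) and a start inside Il1rl1 (chr1:40429320-40429569, plus strand). The last 2 were lost: a start of Amotl2, an angiomotin relative (chr9:102717554-102717803, plus strand), and a start inside Pparg, a nuclear receptor of lipid metabolism (chr6:115421816-115422065, plus strand).
Mmp8: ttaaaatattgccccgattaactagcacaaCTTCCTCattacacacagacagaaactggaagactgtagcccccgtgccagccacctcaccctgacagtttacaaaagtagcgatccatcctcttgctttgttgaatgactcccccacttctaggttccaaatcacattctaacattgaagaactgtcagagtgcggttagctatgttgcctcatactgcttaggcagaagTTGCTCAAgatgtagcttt
Ccl6: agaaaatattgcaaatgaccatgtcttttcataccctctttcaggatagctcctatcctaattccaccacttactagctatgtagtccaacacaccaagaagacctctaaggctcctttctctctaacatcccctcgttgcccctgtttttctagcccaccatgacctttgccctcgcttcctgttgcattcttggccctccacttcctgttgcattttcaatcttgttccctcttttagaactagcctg
Stfa2: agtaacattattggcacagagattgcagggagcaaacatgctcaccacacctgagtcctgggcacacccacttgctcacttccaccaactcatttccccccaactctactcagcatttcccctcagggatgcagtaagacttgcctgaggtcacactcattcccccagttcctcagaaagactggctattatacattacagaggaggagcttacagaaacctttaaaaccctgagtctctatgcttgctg
Il1rl1: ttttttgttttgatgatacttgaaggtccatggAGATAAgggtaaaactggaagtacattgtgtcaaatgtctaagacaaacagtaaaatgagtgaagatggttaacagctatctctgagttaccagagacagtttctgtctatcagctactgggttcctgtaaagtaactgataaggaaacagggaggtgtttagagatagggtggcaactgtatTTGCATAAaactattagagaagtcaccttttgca
Amotl2: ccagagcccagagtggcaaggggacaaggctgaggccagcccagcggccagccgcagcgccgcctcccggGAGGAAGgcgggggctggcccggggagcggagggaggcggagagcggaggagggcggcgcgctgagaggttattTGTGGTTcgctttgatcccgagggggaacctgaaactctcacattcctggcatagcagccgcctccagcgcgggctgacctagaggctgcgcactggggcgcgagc
Pparg: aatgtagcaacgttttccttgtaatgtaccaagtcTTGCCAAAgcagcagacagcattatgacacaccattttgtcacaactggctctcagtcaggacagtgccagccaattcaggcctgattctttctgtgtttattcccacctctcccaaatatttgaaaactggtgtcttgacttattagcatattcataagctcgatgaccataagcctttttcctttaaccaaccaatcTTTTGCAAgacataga
In the Mmp8 promoter the capitals mark a PU.1 match, on the other strand, and a C/EBP match nearer the start. The Il1rl1 start holds a GATA match and a C/EBP match, Amotl2 a PU.1 and a RUNX match, and Pparg 2 C/EBP matches, while the Ccl6 and Stfa2 windows hold none of the motifs searched. The Mmp8 region chr9:7558133-7558671 and the Stfa2 region chr16:36408021-36408647 had a peak in all T618I libraries and in none with the empty vector, as did that of Ccl6. The Amotl2 region chr9:102717249-102718119 was present in all libraries with the non-targeting guide and in none with sgB2. Amotl2 had 1.54, 2.79 and 1.85 kb in sgNT/Empty against 0.23, 1.25 and 0.46 kb in sgB2/T618I (log2 change -1.23 ± 0.29, limma adjusted p = 0.0304), and Pparg had 2.71, 3.33 and 2.97 kb against 1.30, 2.15 and 1.28 kb (-0.78 ± 0.17, adjusted p = 0.0209), with a change of -0.12 in stricter and -0.20 in equal-length lists. Pparg had 1.82, 1.22 and 1.47 kb in sgB2/Empty and 2.43, 2.85 and 2.16 kb in sgNT/T618I. The call of Amotl2 was lost without sgNT/Empty 2 or 3 or sgB2/T618I 1 or 3 and that of Pparg without sgNT/Empty 2 or sgB2/T618I 1 or 3 (adjusted p up to 0.125 and 0.0815).

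Motifs were searched on both strands of the 300-base windows as fixed letters with N for any base. The PU.1 letters GAGGAAG were found in 20.5% of the 88 windows with a gained region, 14.5% of the 62 with a lost region, 11.7% of the 12107 with any region and 10.7% of all 32619. The AP-1 letters TGANTCA were found in 17%, 8.06%, 4.09% and 6.78% of these sets, and the STAT letters TTCNNNGAA in 12.5%, 3.23%, 5.58% and 7.05%. The C/EBP letters TTGCNNAA stood at 7.95%, 3.23%, 7.47% and 9.62%. The RUNX letters TGTGGTT were in 6.82%, 11.3%, 3.39% and 4.41%, and the GATA letters AGATAA in 10.2%, 9.68%, 5.20% and 10.0%. NF-kB (3 gained windows, no lost one), IRF (5 and 2) and CTCF (1 and 4) were rarer. These shares rest on few windows, some of the same gene or overlapping each other, were not tested, and say nothing of whether a factor bound.

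Chromosomes 1 and X differed from the rest. Chromosome 1 held 6.4, 6.64 and 6.65% of the covered length in sgNT/Empty and 8.89, 9.70 and 8.83% in sgB2/T618I (9.14 ± 0.49% against 6.56 ± 0.14%, SD, n = 3; exact p = 0.1, adjusted p = 0.233 over 7 measures). Chromosome X held 2.11, 2.18 and 2.28% against 1.77, 1.75 and 1.80% (exact p = 0.1). The groups did not overlap on either. The other libraries with sgB2 stood with the double mutants, at 8.75 to 10.1% on chromosome 1, and sgNT/T618I with the controls, at 6.59 to 6.86%. On chromosome 1, 122 of 945 genes tested rose (12.9%) and 5 fell, and the median log2 change was 0.28. On X, 13 of 364 fell (3.57%) and 4 rose (median -0.11). Of the 1084 gained regions 175 were on chromosome 1 (16.1%, against 12.6% of all regions and 8.69% of those in at least 2 libraries). Of the 522 lost regions 25 were on X (4.79%, against 1.81% and 2.08%). Gained regions made up 2.46% of the 7127 regions of chromosome 1, near the 2.37% of chromosome 3. Of these 7127, however, only 3224 were in at least 2 libraries, as every gained region is. The chromosome 1 genes named above, Nrp2, Il1r1, Il1r2, Il1rl1, Pard3b, Dst and Dpp10, lie on the chromosome with the raised median, and Amot and Col4a6 on the one with the lowered median. The part of this shift in each gene's change was not tested. Peak lists give no copy number, so a different number of copies of these chromosomes in the sgB2 cells and a difference in openness cannot be told apart. With both chromosomes left out, 234 genes rose and 9 of 21 mature neutrophil genes were called.

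**Figure D5:**
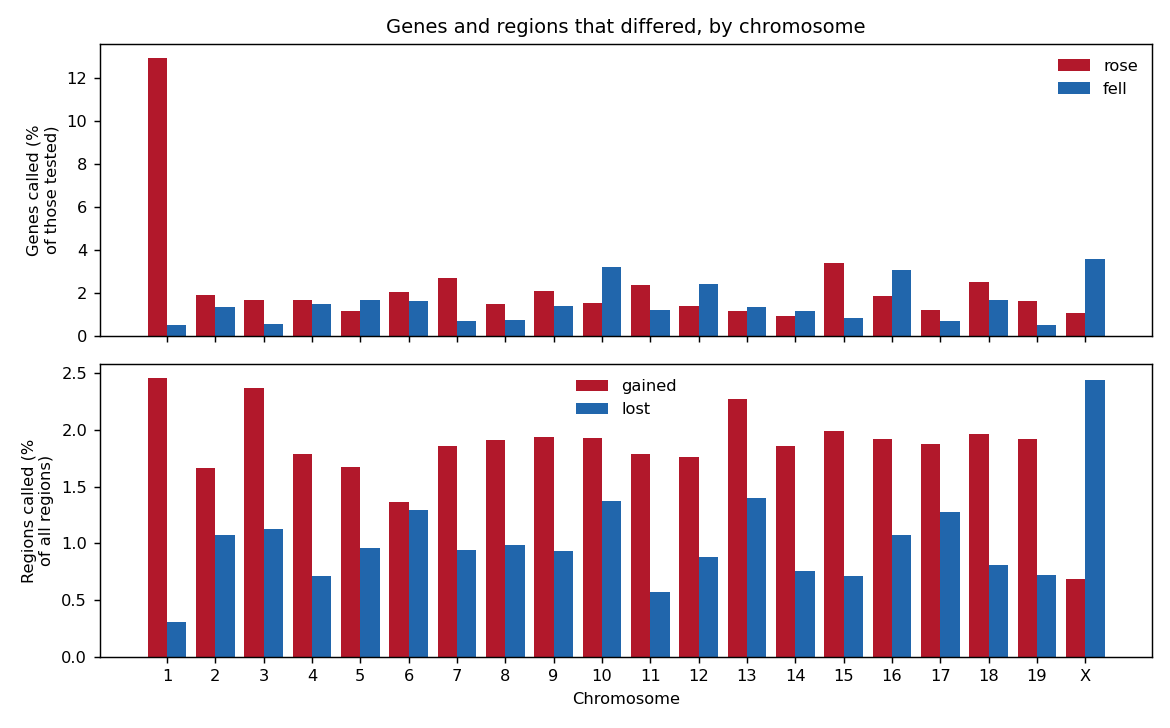
Percent of tested genes that rose or fell (top) and percent of all regions that were gained or lost (bottom) with both changes against controls, by chromosome. Chromosome 1 has the tallest bar of risen genes (12.9%), and X the tallest bars of fallen genes (3.57%) and lost regions (2.44%).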

How the data were processed

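The deposited files were 12 broad peak lists, 1 per library. Per the submitters' processing notes, BWA 0.7.17, SAMtools 1.9, bedtools 2.30, MACS2 2.2.7.1 and deepTools 3.5 were used, with mm10. The deposited score and the deposited fold (a ratio of signal over background) were not used. The −log10 p and −log10 q that the authors deposited were used solely for ranks and a stricter filter inside each list. The lists hold no counts, so depth is unknown.

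Overlapping peaks (1 bp or more) of all lists were merged. For 21631 protein-coding genes of the RefSeq table, covered length within 50 kb was scaled to total covered length outside chromosomes 1 and X, 500 bp were added and the log2 values were fitted with limma 3.58.1 in R 4.3.3 (trend, all 12 libraries, 8 residual degrees of freedom). Testing was limited to genes whose mean reached 500 bp, with Benjamini-Hochberg adjustment per comparison. Library measures were compared by exact permutation tests. Fits were tested on simulated data.

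Members, gene lists (18 lists, 337 genes, 335 in the table) and tests were chosen with earlier results of these data known. The text names the 10 largest changes in each direction of called genes whose groups did not overlap, 1 per locus, up to 4 members per list by p-value, and Asxl1, Csf3r and Hoxb8. Some genes that this rule or the marker lists take in are not reported here. Named regions were up to 6 per direction by mean rank. Regions were not searched for motifs, because no genome was used here; promoters of the RefSeq table were searched instead. Alternatives changed the window, pseudocount, filter, scaling, peak lists, libraries and covariates.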

Additional observations from a re-analysis of the deposited data

Results flagged for a closer look

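Amot had a T618I change that differed between the guides. In sgNT cells the covered length was 1.25 ± 0.29 kb with the empty vector and 1.11 ± 0.08 kb with T618I, and in sgB2 cells it was 1.33 ± 0.15 kb and 0 kb (SD, n = 3). The log2 difference between the T618I changes was -1.76 ± 0.23 (limma adjusted p = 0.0167). All 3 sgB2/T618I libraries had no covered base in the window, so the fitted size depends on the 500 bp added.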

How the results depend on the processing

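Peak lists limit these results: depth is unknown, weak peaks come and go with it, and a covered length does not measure how open a region is. Gene counts were 388 risen and 209 fallen. They were 95 and 94 with a 10 kb flank, 18 and 6 without scaling, 154 and 111 with stricter peaks, 168 and 129 with equal-length lists and 239 and 119 when only the 6 compared libraries were fitted. Without chromosomes 1 and X, 234 rose. Scaling to all chromosomes gave 57.4% of calls as rises, against 64.99% in the main fit. Leaving out 1 library gave 177 to 321 risen and 71 to 221 fallen genes. Risen genes numbered 241 without sgNT/Empty 1, 193 without sgNT/Empty 2, and 179, 177 and 193 without sgB2/T618I 1, 2 and 3. Fallen genes numbered 89 without sgNT/Empty 2, 121 without sgNT/Empty 3, 71 without sgB2/T618I 1 and 93 without sgB2/T618I 3. Of the 388 and 209 genes, 77 and 58 were also called with the 10 kb flank, 83 and 37 with stricter peaks and 60 and 26 with equal-length lists. The cause was not tested. Pseudocounts of 100 and 1000 and no filter kept each count within 1.5 times, as did a covariate for peak number (351 and 279).

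Csf3r turned to -0.11 with the 10 kb flank, -0.077 with stricter peaks and -0.083 with equal-length lists. Gained regions numbered 442 with stricter peaks and 521 with equal-length lists, and 1126 to 1985 with 1 library left out (1838 without sgB2/T618I 1, 1985 without sgB2/T618I 3, 1701 without sgNT/Empty 3). Lost regions then numbered 577 to 2040 (993 without sgB2/T618I 2, 2040 without sgNT/Empty 1). By the definition, region counts cannot fall when a library is left out. The difference in peak number (2301 more with both changes) was -313 with stricter peaks and -917 to 4690 with 1 library left out, and that in median width (-5.33 bp) was 18 and -18.7 to 5.83. Covered length (1.14 Mb more) ran from -0.99 to 2.82 Mb and the share of peaks at gene ends (-3.22 percentage points) from -5.79 to 0.60. None of these measures passed a test.

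Whether libraries with the same replicate number belong together is not known. Deviations of same-numbered libraries correlated at 0.12, 0.16 and -0.16, and those of differently numbered libraries at -0.30 to 0.25. With 3 libraries per group these values cannot decide it. With the replicate number as a block, 409 genes rose and 222 fell.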
